A study of Sus scrofa with 15 samples.

Results

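Immune checkpoint and don't-eat-me genes encode surface proteins that hold back T cells and macrophages. The list held 8 of them (CD274, CD200, CD47, SIRPA, HAVCR2, VSIR, LGALS9 and CD276), in a table of 30477 genes. They were read in subcutaneous backfat of growing Iberian pigs, taken as a biopsy after months on 1 of 3 diets, with 5 pigs and 5 RNA-seq libraries per diet. The control diet (C) was a compound feed without olive by-product, the DOP diet a compound feed containing dry olive pulp, and the WCOC diet a compound feed offered with a silage of wet crude olive cake and barley straw. CD274 and CD200 were put on the list because their levels rose in WCOC, so their WCOC values are given as a description and carry no test. No such basis was stated for the other 6, but all members were chosen with earlier results of these data known.

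Each diet was fed in 1 pen, and the compound feed was given at a larger share of ad libitum intake in C than in the other 2 diets, so diet, pen and feeding level cannot be told apart. The 15 pigs were picked from a larger group for the quantity and quality of their RNA, and their sex was not given in the labels. By the run identifiers, the WCOC libraries and 4 of the controls were sequenced on flow cell A, and the DOP libraries with control replicate 5 on flow cell B. The libraries held 22373715 to 34745218 read pairs counted to genes. Markers of fat cells were abundant throughout. Summed over the 9 genes of the adipocyte list, they were at 15414 CPM or more in every library. Markers of muscle, in a biopsy taken close to the back muscle, ran from 15.5 to 37593 CPM. Their median was 186 CPM in C, 4812 CPM in DOP and 81.4 CPM in WCOC, so the diets were not alike in them. Levels are in CPM, gene counts scaled by TMM to a common library total. A gene was called a differentially expressed gene (DEG) at an adjusted p under 0.05, by edgeR's quasi-likelihood test with Benjamini-Hochberg adjustment over 14918 genes, and a log2 fold change (log2FC) of at least 0.58 in size.

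The proteins fall into 2 kinds. CD274 (PD-L1) and CD276 (B7-H3) are relatives of the B7 costimulators; CD274 binds PD-1 on T cells and lowers their activity, and VSIR (VISTA) is a further relative. HAVCR2 (TIM-3) is a receptor on T cells and myeloid cells, and LGALS9 (galectin-9) is among its ligands. CD200 and CD47 act mainly on myeloid cells: CD200 binds CD200R1, whose signal passes through DOK2 to dampen macrophages, and CD47 binds SIRPA on phagocytes and holds back engulfment. In adipose tissue, macrophages are the most abundant immune cells and clear dying fat cells, and both fat cells and endothelial cells can carry ligands of this kind.

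Of the 8 genes, 5 were matched to a row of the count tables through the gene names used here, and all 5 passed the filter on low counts. SIRPA, VSIR and LGALS9 were not analysed here. In Sscrofa11.1, the genome build of the files, the RefSeq annotation (Annotation Release 106) places CD274 (ENSSSCG00000005211) on chromosome 1 from 216646378 to 216792731 on the minus strand, CD200 (ENSSSCG00000027820) on chromosome 13 from 147465858 to 147485818 on the minus strand and CD47 (ENSSSCG00000011942) on chromosome 13 from 151427933 to 151488064 on the plus strand. HAVCR2 (ENSSSCG00000028875) lies on chromosome 16 from 66138157 to 66160568 on the plus strand and CD276 (ENSSSCG00000001917) on chromosome 7 from 59703283 to 59733910 on the minus strand.

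The bases just before the start of CD274 and CD200 are shown because these are the members that were higher in WCOC. RefSeq gives CD274 13 transcripts, 7 from a distant start and 5 from starts nearer the coding exons, and the window runs back 250 bases from the outermost of these 5. For CD200 the window is 146 bases, the whole gap to the next gene upstream, which RefSeq names as an OX-2 membrane glycoprotein-like locus. Both are on the minus strand, printed 5′ to 3′, and the capitals mark the only match to the motifs searched. It is the TATA box motif on the opposite strand, so the printed strand reads TTTATA.
CD274, chr1:216682907-216683156: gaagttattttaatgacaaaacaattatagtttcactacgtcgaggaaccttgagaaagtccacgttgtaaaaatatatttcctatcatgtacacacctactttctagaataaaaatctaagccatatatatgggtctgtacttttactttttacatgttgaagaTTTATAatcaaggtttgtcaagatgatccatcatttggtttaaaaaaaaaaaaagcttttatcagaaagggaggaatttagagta
CD200, chr13:147485819-147485964: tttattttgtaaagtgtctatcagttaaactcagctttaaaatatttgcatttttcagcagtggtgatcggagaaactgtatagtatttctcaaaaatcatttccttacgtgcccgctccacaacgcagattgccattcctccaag
The motifs, searched on both strands, were the interferon-stimulated response element, the gamma-activated site (TTCNNNGAA), the AP-1 site (TGANTCA), the GC box (GGGCGG), the TATA box (TATAAA) and the CCAAT box (CCAAT). The CD274 window held 1 of the 6, the TATA box letters on the strand opposite to the gene, beginning 85 bases before the start. On either strand, 9.77% of 19569 windows of that length hold them. The CD200 window held none of the letters searched; of windows of its length, 40.2% hold a GC box and 1.63% an interferon-stimulated response element. GC content was 29.2% in the CD274 window and 37.0% in the CD200 window. The count tables do not say which start a read came from.

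CD200 was the member whose WCOC pigs stood clear of all others. Its level was 16.8, 20.9, 18.8, 21.8 and 29.1 CPM in C replicates 1 to 5, and 23.1, 22.3, 30.9, 22.1 and 23.4 CPM in the DOP replicates. In WCOC it was 46.4, 34.1, 39.0, 35.0 and 49.6 CPM. The lowest WCOC pig lay above the highest C pig and above the highest DOP pig. The mean was 21.5 ± 4.68 CPM in C, 24.4 ± 3.70 CPM in DOP and 40.8 ± 6.91 CPM in WCOC (SD, n = 5), which is a log2FC of 0.93 (SE 0.15) or 1.90-fold against C, and of 0.74 (SE 0.15) against DOP. As background, 3.75% of all tested genes lay wholly above C in WCOC and 4.14% wholly above DOP. With 1 library left out at a time the WCOC against C value stayed between 0.84 and 1.06, and within flow cell A, with 4 C and 5 WCOC pigs, it was 1.05. DOP and WCOC share no flow cell, and with flow cell as a term, which rests on control replicate 5 alone, the WCOC against DOP value moved to 1.32.

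CD274 was scarcer and less clearly separated. It was read 40 to 157 times per library. Its level was 1.96, 2.35, 2.68, 3.58 and 1.52 CPM in C, 2.61, 2.98, 3.89, 3.72 and 3.35 CPM in DOP, and 4.48, 5.39, 5.06, 3.05 and 4.63 CPM in WCOC. WCOC replicate 4 lay below C replicate 4 and inside the DOP range, and the other 4 WCOC pigs lay above every C and DOP pig. The mean was 2.42 ± 0.78 CPM in C, 3.31 ± 0.52 CPM in DOP and 4.52 ± 0.90 CPM in WCOC (SD, n = 5). The log2FC of WCOC was 0.90 (SE 0.22), or 1.87-fold, against C and 0.45 (SE 0.22) against DOP. With 1 library left out at a time the value against C ran from 0.77 to 1.08, and within flow cell A it was 0.76. Against DOP it turned to -0.35 with flow cell as a term.

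CD274 and CD200 were chosen for their rise in WCOC, and no use of the DOP libraries in that choice was stated. DOP against C was therefore tested for all 5 members. The C pigs are the same ones that entered the choice, and earlier results of these data were known. None of the 5 was a DEG, where 0.764% of all genes were, and none had an unadjusted p under 0.05, where 17.6% of all genes did. The same count of 0 was given by DESeq2 and limma-voom. For CD274 the log2FC was 0.45 (95% interval -0.029 to 0.93, adjusted p = 0.304), and for CD200 it was 0.18 (interval -0.15 to 0.51, adjusted p = 0.584). The CD274 value was 1.12 with flow cell as a term (adjusted p = 0.248) and 0.77 with the blood endothelial list as a term (adjusted p = 0.297), and the CD200 value was -0.26 with flow cell as a term (adjusted p = 0.684). The median log2FC of the 5 members was 0.18, beside 0.011 for all genes tested. That median is the value of CD200 itself, whose choice used the same C pigs, so it is a description.

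**Figure D1:**
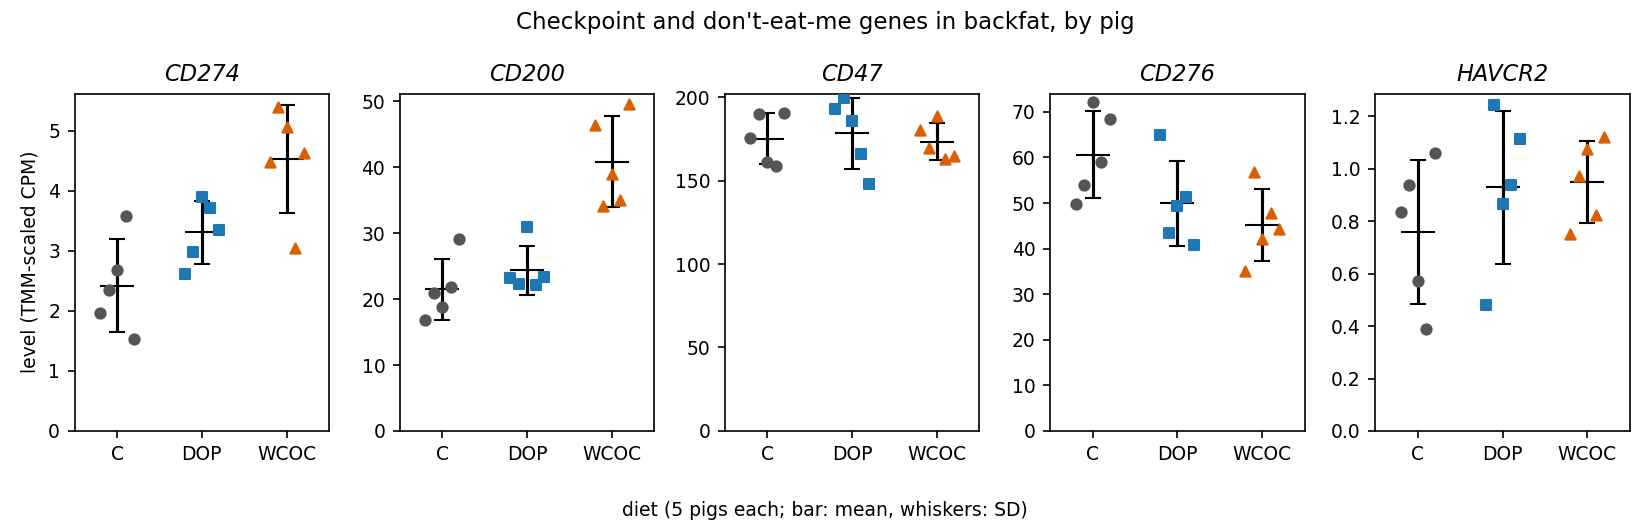
Level (TMM-scaled CPM, each axis from 0) of the 5 measured checkpoint and don't-eat-me genes in each of 15 pigs by diet; points are pigs, the bar is the mean of 5 and the whiskers its SD. All 5 WCOC pigs sit above the C and DOP pigs for CD200, 4 of 5 do for CD274, and the diets overlap for CD47, CD276 and HAVCR2.

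CD47, the best known don't-eat-me signal, kept to a narrow range in all 3 diets. It was 175.3, 190.2, 161.0, 159.0 and 190.5 CPM in C, 193.0, 199.3, 185.8, 166.2 and 147.7 CPM in DOP and 180.4, 169.4, 189.0, 162.8 and 165.0 CPM in WCOC. The highest and the lowest of all 15 values were both in DOP. The log2FC was 0.026 for DOP against C, with a 95% interval of -0.17 to 0.23, and -0.015 for WCOC against C, with an interval of -0.21 to 0.18 (adjusted p = 0.918 and 0.938). At this depth, with 3574 to 6021 counts a library, these intervals against C reached 0.23 on the log2 scale at most. For WCOC against DOP the log2FC was -0.042 (interval -0.24 to 0.16, adjusted p = 0.810).

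CD276, the other B7 relative, had its highest values in C. It was 49.7, 54.0, 72.2, 58.9 and 68.4 CPM in C, 64.8, 43.4, 49.3, 51.3 and 40.8 CPM in DOP and 35.2, 56.8, 42.1, 47.8 and 44.3 CPM in WCOC. C replicates 3 and 5 were the highest of all 15 pigs, and the diets overlapped. The log2FC of WCOC against C was -0.42 (SE 0.15), with an unadjusted p of 0.0115 and an adjusted p of 0.0822 in edgeR's test, so it was not called. For DOP against C it was -0.28 (SE 0.15, adjusted p = 0.340). HAVCR2, the T-cell and myeloid receptor, was close to the limit of detection at 10 to 38 counts a library, or 0.39 to 1.25 CPM. Its log2FC was 0.29 in DOP and 0.32 in WCOC against C, with 95% intervals of -0.34 to 0.92 and -0.30 to 0.95 (adjusted p = 0.651 and 0.497). Both intervals run from below 0 to over 0.9 on the log2 scale. Of the 3 members that could be tested in WCOC, none was a DEG against C, where 6.25% of all genes were, or against DOP, where 7.76% were. An unadjusted p under 0.05 was reached by 1 of the 3 against C and by none against DOP, where 26.4% and 28.1% of all genes reached it, and DESeq2 and limma-voom also called none.

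Per kilobase of RefSeq exon, the order of mean levels in C was CD276 (17.6 CPM per kb), CD47 (15.1), CD200 (3.08), CD274 (0.400) and HAVCR2 (0.134). CD276 and CD47 were within their spread of each other in C (SD 2.76 and 1.31), and per kilobase of coding sequence CD47 was first, at 175 CPM per kb against 37.8 for CD276. The other neighbours in this order were further apart than their SDs in C. In WCOC, CD200 reached 5.86 CPM per kb of exon and CD274 0.747.

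The partners of these genes were taken from 7 lists written by function: the PD-1 axis, the other B7 and CD28 relatives, the CD200 axis, the CD47 and SIRP axis, the partners of TIM-3, galectins and VISTA, other inhibitory pairs, and eat-me signals with their engulfment receptors. These lists too were made with earlier results of these data known, so their shares of DEGs are a description. Of 72 genes listed, 53 were matched and 50 tested. No partner gene was a higher DEG in any comparison. In WCOC against C, 8 of 50 were DEGs, all lower (16% of the genes, where 3.93% of all genes were lower DEGs). They were 1 of 11 on the PD-1 axis, 0 of 4 B7 and CD28 relatives, 2 of 5 on the CD200 axis, 1 of 6 on the CD47 and SIRP axis, 2 of 5 partners of TIM-3, galectins and VISTA, 1 of 6 other inhibitory pairs and 1 of 13 eat-me signals and engulfment receptors. In WCOC against DOP 3 of 50 were lower (6%, background 5.11%), and in DOP against C 1 of 50, LGALS3 (2%, background 0.55%). The median log2FC of the partner genes was -0.16 in DOP and -0.20 in WCOC against C, and -0.038 in WCOC against DOP.

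Markers of macrophages differed between the control pigs. C replicates 3 and 5 held the highest summed levels of the macrophage list, 619.9 and 791.4 CPM over 13 genes, against 292.3 to 388.1 CPM in the other C pigs, 195.2 to 487.5 CPM in DOP and 136.7 to 381.5 CPM in WCOC. Of the 13 macrophage markers, 6 were DEGs in WCOC against C, all lower, and 1 was lower in DOP against C. Of all genes, 3.93% and 0.55% were lower DEGs in these comparisons. Fewer macrophages and less macrophage RNA per cell cannot be told apart in whole tissue. With both C replicates 3 and 5 left out, an alternative chosen after the data were seen, 289 of 15252 genes were DEGs in WCOC against C, among them 1 partner gene and none of the 3 tested members. CD200 then stood at 1.04 and CD274 at 0.78 on the log2 scale against C. With the macrophage list as a term in the fit, 32 of 14918 genes were DEGs in WCOC against C, beside 933 without it. None of the 8 lower partner genes was among the 32. The log2FC was -0.043 for DOK2 (SE 0.33), -0.020 for CD48 (SE 0.48), -0.087 for CD44 (SE 0.16) and -0.14 for STAB1 (SE 0.17). It was -0.33 for CD200R1 (SE 0.40), -0.36 for LGALS3 (SE 0.40), -0.67 for PDCD1LG2 (SE 0.26) and -0.66 for QPCTL (SE 0.18). The list was itself lower in WCOC against C (median log2FC -1.16). Whether macrophage content accounts for any of these values was not tested.

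The receptor of CD200 went the other way from its ligand. CD200R1 (ENSSSCG00000011925) was 6.23, 12.4, 22.1, 7.91 and 37.1 CPM in C, 8.64, 4.64, 2.84, 4.09 and 2.37 CPM in DOP and 3.93, 6.14, 3.27, 3.59 and 5.10 CPM in WCOC. C replicates 3 and 5 were the highest of all pigs, and every WCOC pig was below every C pig, by a narrow gap. Of all genes, 3.87% lay wholly below C in WCOC. The log2FC of WCOC was -1.96 (SE 0.46, adjusted p = 0.0175 in edgeR's test), and that of DOP -1.93 (SE 0.46, adjusted p = 0.0600), which was not called, but was with DESeq2 (adjusted p = 0.00100). Without C replicates 3 and 5 the WCOC value was -1.01 (adjusted p = 0.173), and without WCOC replicate 1 the call was lost too (adjusted p = 0.0513). DOK2, the adaptor of CD200R1, was also lower in WCOC, with a log2FC of -1.53 (SE 0.41, adjusted p = 0.0300), and -0.59 without C replicates 3 and 5. The other genes of the CD200 axis list, DOK1, RASA1 and INPP5D, were not DEGs, so 2 of 5 were. RefSeq places a CD200R1-like gene beside CD200R1 and the OX-2-like locus beside CD200; how the authors' counting shared reads between such copies is uncertain.

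Within a pig, the ratio of CD200 to CD200R1 counts went from 0.783 to 2.75 in C (median 1.69), from 2.68 to 10.9 in DOP (median 5.39) and from 5.55 to 11.9 in WCOC (median 9.75). Both terms enter it: the mean level was 24.4 CPM for CD200 and 4.52 CPM for CD200R1 in DOP, against 21.5 and 17.1 CPM in C. The ratio was formed after the values were seen and is given without a test.

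The second PD-1 ligand, PDCD1LG2 (PD-L2, ENSSSCG00000032561), was lower in WCOC, where CD274 was higher. It was 3.04, 4.06, 4.62, 3.31 and 4.84 CPM in C, 2.97, 3.40, 3.27, 4.39 and 3.90 CPM in DOP and 2.36, 2.40, 2.19, 1.52 and 2.57 CPM in WCOC. No WCOC pig reached the lowest C or DOP pig; of all genes, 3.87% lay wholly below C and 4.77% wholly below DOP in WCOC. The log2FC was -0.85 (SE 0.18, adjusted p = 0.0114) against C and -0.70 (SE 0.18, adjusted p = 0.0248) against DOP, and -0.15 (adjusted p = 0.722) for DOP against C. The call against C held with each of the 10 libraries left out in turn, and was lost without C replicates 3 and 5 (log2FC -0.65, adjusted p = 0.101), within flow cell A (-0.78, adjusted p = 0.0629) and with the macrophage list (-0.67, adjusted p = 0.368) or the blood endothelial list (-0.71, adjusted p = 0.299) as a term. The call against DOP was lost without DOP replicate 4, DOP replicate 5 or WCOC replicate 4, where the largest adjusted p was 0.0570, with the replicate block (-0.71, adjusted p = 0.0557), with the macrophage list (-0.63, adjusted p = 0.0515) or the skeletal muscle list (-0.66, adjusted p = 0.120) as a term, and with flow cell as a term, where the log2FC was -0.34 (adjusted p = 0.693). Over all genes, 32 of 14918 were called against C with the macrophage list and 50 with the blood endothelial list as a term. Against DOP, 1 was called with flow cell as a term. The ratio of CD274 to PDCD1LG2 was 0.315 to 1.08 in C, 0.846 to 1.19 in DOP and 1.81 to 2.31 in WCOC, again without a test. Their receptor PDCD1 (PD-1) was barely read, at 0.0376 to 0.663 CPM, with a log2FC of -1.07 (SE 0.60, adjusted p = 0.257) for WCOC against C. The other tested genes of the PD-1 axis list, among them the phosphatases PTPN6 and PTPN11, both chains of the interferon-gamma receptor (IFNGR1 and IFNGR2), JAK1, JAK2 and IRF1, held no DEG in any comparison.

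**Figure D2:**
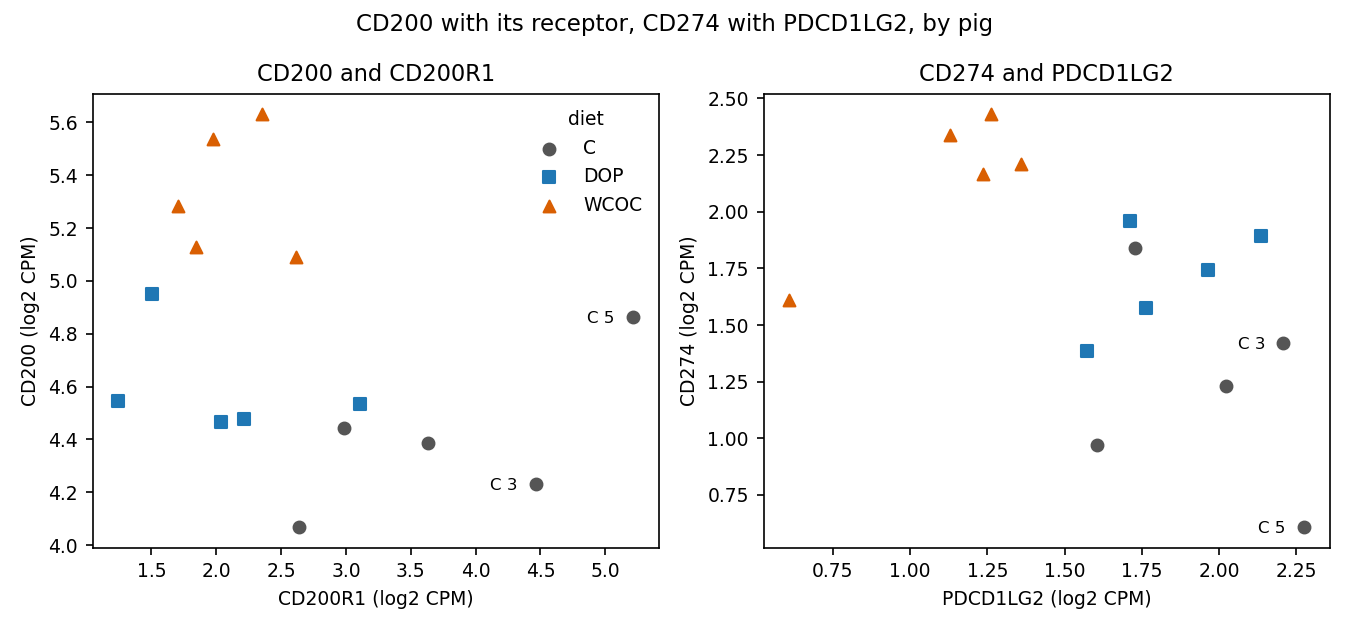
Level (log2 CPM on both axes) of CD200 against its receptor CD200R1 (left) and of CD274 against the other PD-1 ligand PDCD1LG2 (right) in each of 15 pigs, with C replicates 3 and 5 labelled. Against C, the WCOC pigs lie to the upper left in both panels, with CD200R1 from 3.27 to 6.14 CPM and PDCD1LG2 from 1.52 to 2.57 CPM. The DOP pigs overlap the WCOC pigs in CD200R1, at 2.37 to 8.64 CPM. WCOC replicate 4 is the low WCOC point on the right.

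PLGRKT, a plasminogen receptor gene that RefSeq places inside the span of CD274 on the opposite strand, was counted apart from it, at 15.8 to 26.5 CPM. Its log2FC in WCOC was -0.25 against C (SE 0.088, adjusted p = 0.0831), opposite in sign to CD274, and it was not a DEG. Whether reads were counted by strand was not given in the sources used here, so reads from the overlap of the 2 genes may not be told apart. Of 5 genes that start within 250 kb of CD274, 3 were tested (PDCD1LG2, PLGRKT and JAK2), and of 9 around CD200, 2 were tested (SLC35A5 and ATG3). Among these 5, PDCD1LG2 was the only DEG against C.

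CD47's partners held 1 DEG of 6. QPCTL, the enzyme that modifies the end of CD47 at which SIRPA binds, was lower in WCOC. QPCTL (ENSSSCG00000032819) was 15.7, 11.3, 12.6, 13.4 and 12.5 CPM in C, 11.2, 13.7, 12.4, 14.2 and 12.3 CPM in DOP and 7.13, 8.76, 9.63, 6.35 and 8.17 CPM in WCOC. All WCOC pigs were below all others, where 3.87% of all genes lay wholly below C and 4.77% wholly below DOP. The log2FC was -0.71 (SE 0.12, adjusted p = 0.00413) against C and -0.67 (SE 0.12, adjusted p = 0.00526) against DOP, or 1.63-fold and 1.59-fold lower, and -0.034 (adjusted p = 0.922) for DOP against C. It was the only partner gene still called against C without C replicates 3 and 5, at -0.75 (adjusted p = 0.0232), and it stayed called within flow cell A and with each library left out in turn. Against C the call was lost with the macrophage list (log2FC -0.66, adjusted p = 0.162) or the blood endothelial list (-0.63, adjusted p = 0.161) as a term. Against DOP it was lost with flow cell as a term (-0.76, adjusted p = 0.311). In these fits 32, 50 and 1 of 14918 genes were called. THBS1, a secreted ligand of CD47, was 14.2 to 50.6 CPM in C, 14.8 to 31.0 CPM in DOP and 14.2 to 33.2 CPM in WCOC, and its log2FC of -0.34 and -0.24 against C passed no threshold (adjusted p = 0.656 and 0.694).

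The costimulators that share receptors with the inhibitory family were not called. CD86 was 6.28 to 26.5 CPM in C, with replicates 3 and 5 again the highest, 2.86 to 7.55 CPM in DOP and 3.53 to 7.14 CPM in WCOC. Its log2FC was -1.30 in both diets (SE 0.40; adjusted p = 0.131 in DOP and 0.0508 in WCOC), and DESeq2 called both. CD80 was 2.05 to 5.90 CPM in C, 1.71 to 6.04 CPM in DOP and 2.13 to 4.90 CPM in WCOC, with log2FC of 0.041 and -0.20 (adjusted p = 0.969 and 0.752), neither of them keeping its sign in every alternative. Of the T-cell receptors of this family, CTLA4, CD28 and ICOS were below the filter, with CTLA4 at 0 to 9 counts a library.

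The remaining lower DEGs among the partners were LGALS3 and CD44 on the TIM-3 and galectin list, CD48 among the other inhibitory pairs and STAB1 among the engulfment receptors. LGALS3 (galectin-3, also a product of activated macrophages) was 68.2, 124, 317, 96.6 and 345 CPM in C, against 20.6 to 63.3 CPM in DOP and 30.8 to 87.2 CPM in WCOC. Its log2FC was -2.38 in DOP and -1.90 in WCOC (SE 0.47 and 0.46, adjusted p = 0.0366 and 0.0198). CD48, a ligand on white blood cells, had a log2FC of -1.78 in WCOC (SE 0.51, adjusted p = 0.0384) and -2.26 in DOP (SE 0.52, adjusted p = 0.0533). CD44, the hyaluronan receptor, had -0.58 in WCOC (SE 0.16, adjusted p = 0.0322). C replicates 3 and 5 were the highest of all pigs for each of these 3 genes. STAB1, a scavenger receptor of macrophages and sinusoidal endothelium that takes up dying cells, was 55.5 to 73.0 CPM in WCOC. It was below C (73.7 to 149 CPM), by a narrow gap, and below DOP (98.7 to 156 CPM). Of all genes, 3.87% lay wholly below C and 4.77% wholly below DOP in WCOC. The log2FC of STAB1 was -0.74 against C (SE 0.18, adjusted p = 0.0230) and -0.86 against DOP (SE 0.18, adjusted p = 0.0116). With flow cell as a term STAB1 was at -0.28 against DOP (adjusted p = 0.737) and at -0.60 against C (adjusted p = 0.0560), and was not called. With that term 1 of 14918 genes was called against DOP and 680 against C. Without C replicates 3 and 5 none of the 4 was called, with log2FC of -0.91, -0.75, -0.31 and -0.40 for LGALS3, CD48, CD44 and STAB1 in WCOC.

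**Figure D3:**
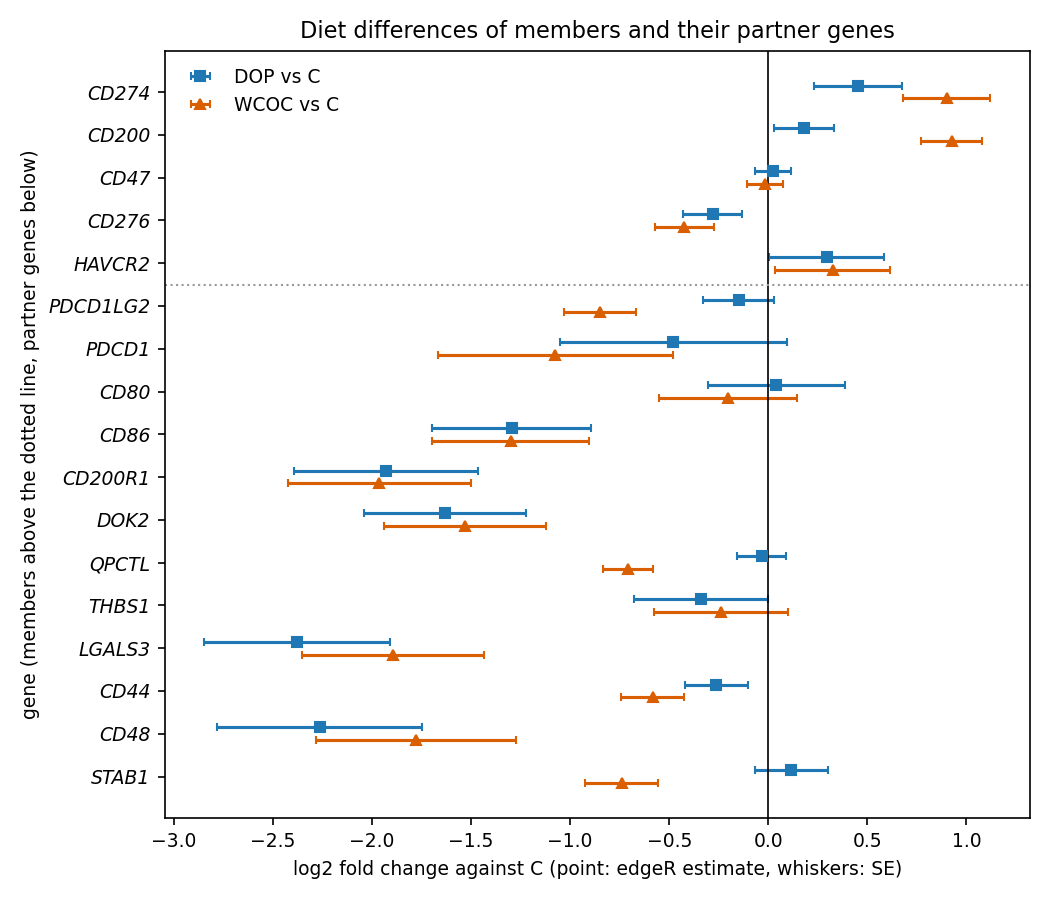
log2 fold change against C (edgeR estimate, whiskers SE) of the 5 members and of 12 named partner genes for DOP (squares) and WCOC (triangles). CD274 and CD200 lie at 0.90 and 0.93 in WCOC, chosen for that rise; CD47 lies at 0 within its SE, and most partner genes lie to the left, 8 of them called in WCOC.

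Set against markers of the other cells in the biopsy, CD276 was the member that moved with the macrophage list. With diet means removed, its log2 CPM followed the mean log2 CPM of the macrophage list over 15 libraries with a Pearson r of 0.816 (permutation p = 0.00138, adjusted 0.0276 over 20 relations of 5 members with 4 lists) and a Spearman rho of 0.771 (permutation p = 0.00317, adjusted 0.0634). Without the 2 libraries farthest from the median r was 0.756, and it was 0.824 within the 9 libraries of flow cell A. In flow cell B it was 0.793. That value rests on the 5 DOP pigs alone, because the 1 control there equals its own diet mean. With the macrophage list as a term, the log2FC of CD276 in WCOC against C went from -0.42 to 0.014 (adjusted p = 0.985). For CD200 the relation to the macrophage list had an r of 0.010 and for CD274 -0.20 (adjusted permutation p = 0.974 and 0.870).

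The other 19 relations, with the blood endothelial, adipocyte, skeletal muscle and macrophage lists, had adjusted permutation p-values of 0.336 or more. Those of CD274 with the blood endothelial list (r = -0.51) and the adipocyte list (r = 0.54) were the largest for that gene. The largest of the 19 in size was that of CD47 with the skeletal muscle list (r = -0.65). Its permutation p was 0.0374 unadjusted and 0.336 adjusted, and r was -0.47 without the 2 libraries farthest from the median. The blood endothelial list had summed levels of 1255 to 1580 CPM in C, 1603 to 2058 CPM in DOP and 1414 to 2209 CPM in WCOC over 11 genes, of which 2 were higher DEGs in WCOC against C and none was lower. With that list as a term CD274 moved to 1.32 on the log2 scale in WCOC against C. CD200, which endothelial cells also make, stood at 0.98 with it. Of the other marker lists, WCOC against C had 1 higher DEG of 9 adipocyte genes and 3 lower of 7 fibroblast and adipocyte progenitor genes. It had 1 lower of 9 T and NK cell genes and 1 lower of 4 dendritic cell genes. None was a DEG among 2 B cell, 5 lymphatic endothelial, 3 skeletal muscle, 3 Schwann cell and 4 epidermis genes tested. Of all genes, 6.25% were DEGs in WCOC against C in either direction, and 3.93% were lower DEGs. The B cell marker CD79A and the muscle marker TNNI2 were at 0 in all libraries. In WCOC against DOP, 1 of the 3 skeletal muscle genes was a lower DEG, and their median log2FC was -5.83. Of all genes, 5.11% were lower DEGs in that comparison. The members did not follow each other: over the 10 pairs of members, with diet means removed, r ran from -0.36 to 0.25, and for CD274 with CD200 it was -0.049 (permutation p = 0.885, adjusted 0.943).

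**Figure D4:**
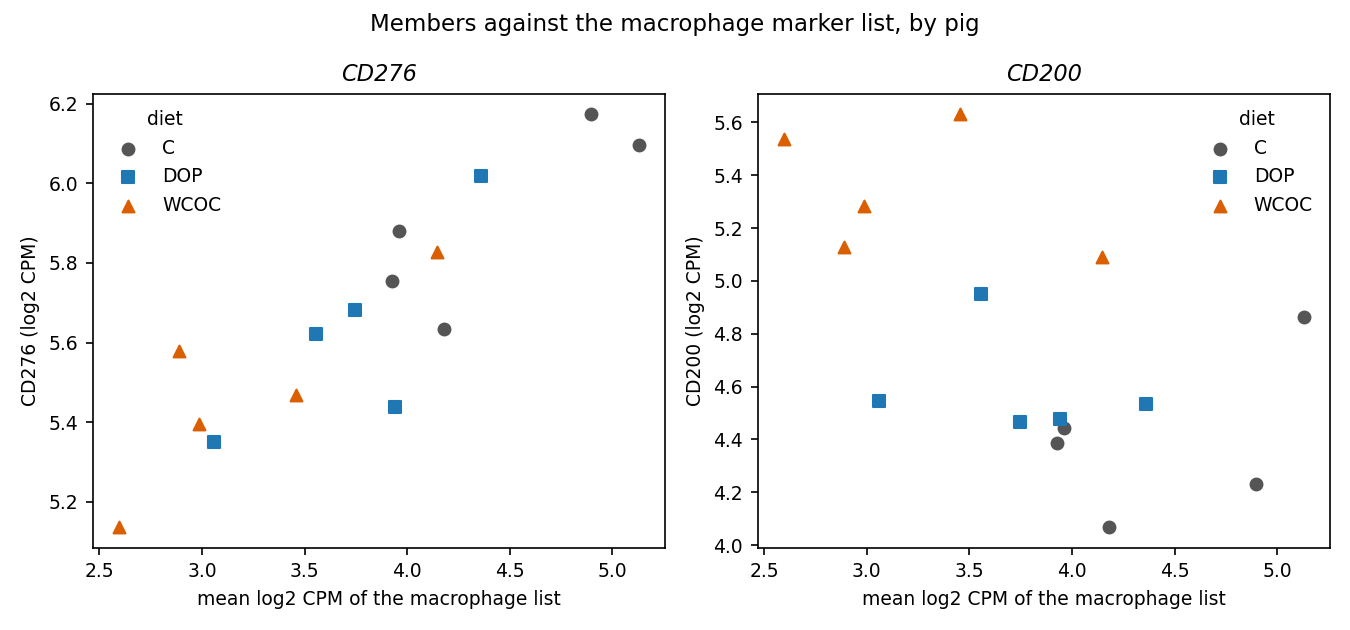
log2 CPM of CD276 (left) and CD200 (right) against the mean log2 CPM of 13 macrophage marker genes in each of 15 pigs, coloured by diet. CD276 climbs with the list in every diet (r = 0.816 with diet means removed), and CD200 does not (r = 0.010).

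The genes whose pattern over the 15 libraries was most like that of a member were taken by Pearson r of log2 CPM over all tested genes with a symbol, as a description. The libraries share diet, flow cell and tissue makeup, and a gene with a diet difference is like any other with the same one. For CD274 they were ATP9B (r = 0.92), CPB2 (0.88) and LGALS12 (0.87), the last a galectin of fat cells, and with diet means removed PEX14 (0.90), RNLS (0.88) and FOCAD (0.86). For CD200 they were CRACD (0.90), PAPLN (0.90) and NICN1 (0.90), and with diet means removed SCN7A (0.85), SEC24C (0.85) and SEC23IP (0.83). For both, the 3 nearest genes changed when the diet means were removed. For CD276 they were NT5E (0.94), CFL1 (0.93) and GAS7 (0.91), of which NT5E, the surface enzyme CD73 that makes adenosine, was a lower DEG in WCOC against C, with a log2FC of -2.06 (SE 0.47, adjusted p = 0.0153). CD47 was closest to SFXN1, SLC18B1 and HIF1A (r from 0.83 to 0.80), and HAVCR2 to SLCO1A2 and PRKRA (r of 0.79 and 0.78).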

How the data were processed

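Backfat RNA of 15 Iberian pigs, 5 per diet, was read as 1 paired-end library per pig. The deposited files hold raw counts per Ensembl gene, which the authors made by aligning untrimmed reads to Sscrofa11.1 with HISAT2, set to a strand-specific protocol, and counting with HTSeq; the annotation release and the strand setting of the counting were not given in the sources used here. The 5 HTSeq summary lines, 23.4 to 32.8% of read pairs, were left out.

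Counts were filtered with filterByExpr, scaled by TMM and fitted over all 15 libraries with 1 mean per diet by edgeR 4.0.16 (glmQLFit, glmQLFTest, R 4.3.3). The pipeline was tested on simulated data. Alternatives were the size factors of DESeq2, no low-count filter, DESeq2 1.42.0, limma-voom 3.58.1, only the diets compared, replicate block, flow cell, and the macrophage, blood endothelial or skeletal muscle list as a covariate, flow cell A alone, and each library left out. Leaving out both C replicates 3 and 5 was added after the data were seen. Correlations used log2 CPM with a prior count of 1 and 100000 permutations within diet. The p-values measure the spread between pigs of 1 pen per diet.

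The members and the lists were chosen with earlier results of these data known. Symbols came from a table of gene names, in which 5 of the 8 members had an identifier. The counts planned over 8 members were therefore made over 5 in DOP against C. In the WCOC comparisons, where CD274 and CD200 were left out, they were made over 3. Named genes were the members, every partner gene called in any comparison, 7 partners fixed by name, the genes most like each member (3 each, of which 1 is not reported here), and tested genes starting within 250 kb of CD274 or CD200. Gene positions and sequences are from RefSeq. The replicate numbers of the labels give no link between pigs of different diets.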

Additional observations from a re-analysis of the deposited data

Results flagged for a closer look

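Among 57 sets of 5 pigs (19 member and partner genes in each diet), 2 held a pig whose level stood far from the other 4, by the gap to its nearest neighbour as a share of the whole range; chance alone gives about 1 in 20. CD200 in DOP replicate 3 was 30.9 CPM, with the next DOP pig at 23.4 CPM; it was still below every WCOC pig. CTLA4 in C replicate 5 was 0.298 CPM, or 9 counts, with the next C pig at 0.0854 CPM; that control also had the highest macrophage list of all pigs.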

How the results depend on the processing

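The counts of members called were 0 in all comparisons under all alternatives. They cover 5 members in DOP against C. In the WCOC comparisons they cover 3, without CD274 and CD200, which were chosen for their rise in WCOC. For DOP against C, the 1 called partner gene became 5 with DESeq2 and 6 with flow cell as a covariate, and 0 with limma-voom, only the diets compared, the replicate block, each of the 3 list covariates, or both C replicates 3 and 5 left out; the 1 called marker gene became 8 with DESeq2, 3 with flow cell, and 0 in the others except the macrophage covariate. For WCOC against C, the 8 partner genes became 2 with the replicate block, 3 with flow cell, 2 in flow cell A alone, 0 with the macrophage or blood endothelial covariate and 1 without C replicates 3 and 5 (with these 2 covariates the log2FC of QPCTL was -0.66 and -0.63, of PDCD1LG2 -0.67 and -0.71, of DOK2 -0.043 and -0.97 and of CD48 -0.020 and -1.06); the 14 marker genes became 9 with only the diets compared, 4 with the block, 7 with flow cell, 4 in flow cell A alone, 0 with either covariate and 1 without these controls. For WCOC against DOP, the 3 partner genes became 0 with flow cell. The 8 marker genes became 18 with DESeq2, 5 with limma-voom, 5 with the block and 0 with flow cell. They became 13 with the macrophage and 2 with the skeletal muscle covariate. Of all 14918 genes, 1158 were called in this comparison. That count became 1424 with DESeq2, 822 with limma-voom, 561 with the block and 1 with flow cell. It became 1059 with the macrophage and 439 with the skeletal muscle covariate. Over all genes, the 114 calls of DOP against C became 495 with DESeq2, 170 with flow cell and 19 with limma-voom. They became 4 and 42 with the macrophage and skeletal muscle covariates, 2 with only the diets compared and 0 in the other settings named. In WCOC against C, 933 became 766 with only the diets compared, 473 with the block and 680 with flow cell. They became 486 in flow cell A alone, 32 with the macrophage and 50 with the blood endothelial covariate. The causes of these shifts were not tested.

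With 1 library left out, partner genes called ran from 0 to 5, 2 to 10 and 2 to 3, and marker genes from 0 to 4, 4 to 21 and 4 to 14 (DOP against C, WCOC against C, WCOC against DOP). The log2FC that changed sign ran from -0.021 to 0.084 for CD47, -0.21 to 0.29 for CD80, -0.51 to 0.0017 for THBS1, -0.083 to 0.033 for QPCTL and -0.0083 to 0.25 for STAB1 in DOP against C, from -0.053 to 0.016 for CD47, -0.42 to 0.05 for CD80 and -0.41 to 0.10 for THBS1 in WCOC against C, and from -0.13 to 0.15 for HAVCR2 in WCOC against DOP. In WCOC against C, PDCD1LG2 and QPCTL stayed called in all 10 fits, CD200R1 in 9, LGALS3 in 7, STAB1 in 6, DOK2 in 5, and CD44 and CD48 in 4; C replicate 3 or 5 was among the losses of the last 5. LGALS3 in DOP against C stayed called in 4 of 10.

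CD274 moved to 1.12 with flow cell and 0.77 with the blood endothelial covariate in DOP against C, to 1.32 in WCOC against C with the blood endothelial covariate, and to -0.35 in WCOC against DOP with flow cell, where CD200 moved to 1.32. Other signs that turned, in DOP against C: with flow cell CD200 (-0.26), CD47 (-0.094), HAVCR2 (-0.19), CD80 (-0.67), QPCTL (0.036) and STAB1 (-0.33); with the blood endothelial covariate CD47 (-0.017), PDCD1 (0.073), CD80 (-0.018) and QPCTL (0.024); with the macrophage covariate PDCD1 (0.10) and CD44 (0.014); without C replicates 3 and 5 PDCD1 (0.20), PDCD1LG2 (0.047), THBS1 (0.17) and CD44 (0.007); with limma-voom CD80 (-0.031). In WCOC against C: with flow cell CD47 (0.017), CD80 (0.05) and THBS1 (0.11); in flow cell A alone CD47 (0.0073), CD80 (0.042) and THBS1 (0.096); with the macrophage covariate CD47 (0.057), CD276 (0.014), CD80 (0.83), CD86 (0.15) and THBS1 (0.35); without C replicates 3 and 5 CD80 (0.19) and THBS1 (0.27). In WCOC against DOP: with flow cell CD47 (0.11) and CD276 (0.077), and with the macrophage covariate CD276 (0.047).

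Pigs of the same replicate number did not deviate together (r from -0.495 to 0.345 over 15 pairs, 3 of them over 0.1), so the numbers do not pair the pigs; with the replicate block CD274 stood at 0.94 and CD200 at 0.93 in WCOC against C. The low counts of HAVCR2 and PDCD1 limit what could be detected, and the flow cell term rests on C replicate 5 alone.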
